A study of Mus musculus with 12 samples.

Results

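The side routes of glucose were followed through 10 enzymes: aldose reductase (Akr1b3) and sorbitol dehydrogenase (Sord) of the polyol pathway, Gfpt1, Gfpt2, Pgm3 and Uap1 of the hexosamine pathway, and G6pdx, Pgd, Tkt and Taldo1 of the pentose phosphate pathway. Every probe that the platform annotation ties to one of these genes alone was taken, which gave 17 of the 34885 probes with 1 gene symbol and covered 7 of 19053 genes. Akr1b3, Sord and G6pdx had no annotated probe and were not analysed here, so the polyol pathway is described only through neighbouring genes. A probe was tested where its detection p-value was below 0.05 on at least 3 of the 12 arrays, which left 7 of the 17 probes, from 6 genes, among 16311 tested probes.

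Cultured mouse podocytes, labelled as a cell line, were profiled on Illumina mouse expression arrays in 4 groups of 3 arrays. Controls had neither agent, the DZNep group had 48 h of DZNep, the high glucose group had 48 h of high glucose, and the last group had both for 48 h. DZNep is 3-deazaneplanocin A, a blocker of S-adenosylhomocysteine hydrolase that lowers histone methylation by Polycomb repressive complex 2. The glucose concentrations, the DZNep dose and the clonality of the line are not given in the sources used here, nor is it stated that the 3 arrays of a group came from separate cultures, so p-values measure the spread between these samples only.

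Cells send part of their glucose away from glycolysis. The polyol pathway reduces glucose to sorbitol and oxidises sorbitol to fructose, and is known for its activity in tissues exposed to high glucose. The hexosamine pathway starts when glutamine:fructose-6-phosphate amidotransferase, encoded by Gfpt1 and Gfpt2, adds an amino group to fructose 6-phosphate. Pgm3 then isomerises the phosphorylated sugar and Uap1 makes UDP-N-acetylglucosamine, the donor for N-glycans, hyaluronan and the O-GlcNAc mark on proteins. The pentose phosphate pathway has an oxidative branch, in which G6pdx and Pgd form NADPH, and a reversible branch, in which Tkt (transketolase) and Taldo1 (transaldolase) shuttle carbon units between sugar phosphates and glycolysis.

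Tkt and Uap1 were the members with a changed probe, and their promoters are shown for this reason, from 250 bases before to 50 bases after the start site (RefSeq, GRCm38.p6). Tkt lies on the plus strand at chr14:30548881-30549180, and Uap1 on the minus strand at chr1:170174915-170175214. Capitals mark the letters TGACGT, the core recognised by CREB and ATF factors, searched on both strands.
Tkt promoter: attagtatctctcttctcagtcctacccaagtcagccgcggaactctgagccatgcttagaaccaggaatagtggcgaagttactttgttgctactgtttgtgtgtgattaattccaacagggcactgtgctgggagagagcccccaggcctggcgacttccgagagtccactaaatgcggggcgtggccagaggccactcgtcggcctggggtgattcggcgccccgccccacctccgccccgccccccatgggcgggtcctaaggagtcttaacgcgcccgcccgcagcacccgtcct
Uap1 promoter: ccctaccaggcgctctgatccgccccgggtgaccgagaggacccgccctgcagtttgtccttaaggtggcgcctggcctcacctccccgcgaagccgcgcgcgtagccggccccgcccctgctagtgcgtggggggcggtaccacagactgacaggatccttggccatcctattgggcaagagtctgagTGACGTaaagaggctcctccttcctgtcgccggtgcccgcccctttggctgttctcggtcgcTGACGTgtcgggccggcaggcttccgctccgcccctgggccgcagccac
The Uap1 window held TGACGT at 2 places on the gene's strand, beginning at -61 and at 1 counted from the start site, and the Tkt window held none. Of 32851 mouse promoters of the same length, 7.51% held these letters. Of the 9 members with a promoter in the table, only Uap1 did. The antioxidant response core TGACNNNGC was in 2 of the 9 (12.4% of all promoters), namely G6pdx and the second start of Pgd. A member counts where any of its promoters matches, and Pgd has 2, whereas the shares are of single promoters. The E-box CACGTG (7.15% of all) and the NFAT5 core TGGAAA (21.4%) were in 0 of the 9. Neither printed window held any of these 3, and a match is only a run of letters.

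On each array 38.4% to 41.3% of 45281 probes were detected, the median raw signal was 133 to 151, and the correlation of any 2 arrays was 0.973 to 0.996. In a principal component analysis the leading axis, carrying 44.3% of variance, held the DZNep arrays on one side, and the next axis, carrying 14.6%, put control replicate 3 by itself at -26.6. Of 9 podocyte markers with a probe, 7 were detected on all arrays, among them Nphs1 (nephrin) and Synpo, whereas Ptpro was on 0. Tubular markers were also present, 6 of 9 on all arrays, with Cdh16 at a mean log2 level of 13.5 in control, while Slc34a1, Umod and Aqp2 were on 0 arrays. Of 7 mesangial and smooth muscle markers 5 were on all arrays (Pdgfrb, Gata3, Des, Tagln and Acta2), and Thy1 on 0. Of 7 endothelial markers Esam and Eng were on all 12 and Kdr on 11, while Pecam1, Cdh5 and Emcn were on 0. Of 5 parietal markers 3 were on all arrays (Pax8, Cldn1 and Cd44), with Krt8 on 7 and Krt18 on 0. Of 6 leukocyte markers 0 were on all arrays and 4 (Ptprc, Adgre1, Itgam and Tyrobp) on 0.

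**Figure D1:**
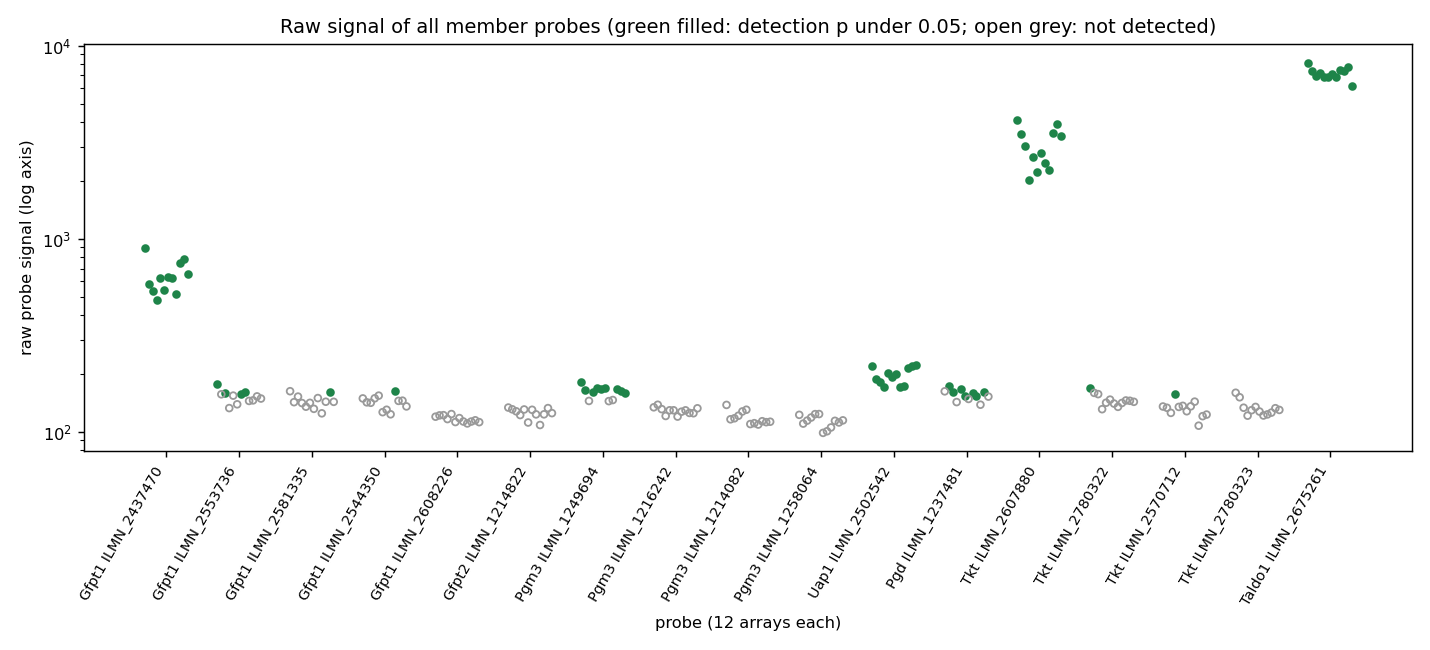
Raw signal (log axis) of all 17 member probes, 12 points each, in the order control, DZNep, high glucose plus DZNep and high glucose. Filled points had a detection p below 0.05 and open points did not. Probes of Gfpt1, Uap1, Tkt and Taldo1 were detected on all 12 arrays, at 1 probe per gene, and Gfpt2 on 0.

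Of the 10 member probes that were not tested, 6 were detected on 0 arrays and 4 on 1. Gfpt2, the second amidotransferase, had 1 probe, with raw signals from 108 to 133 and no detection on any array. For Gfpt1 the probe annotated to its RefSeq transcript (ILMN_2608226) was detected on 0 arrays, whereas the probe with the clear signal (ILMN_2437470) carries no transcript accession in the annotation. For Tkt, 3 probes are annotated to the same RefSeq transcript and 1 of them (ILMN_2607880) was detected on all 12 arrays. The other two read 131 to 169 (ILMN_2780322, 1 array) and 121 to 159 (ILMN_2780323, 0 arrays) in raw signal. Which of these probes matches the transcript made in podocytes was not tested, so each value below belongs to the probe named. A level here is a log2 normalised intensity, and levels of different probes are not set against each other.

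The first comparison asked how DZNep changed these enzymes at the control glucose level. Of the 7 tested member probes, 0 were higher, 1 was lower and 6 did not pass an adjusted p of 0.05, where 31.1% of all tested probes passed (17.1% higher, 14.1% lower). The 1 was Tkt, transketolase, which fell by 0.55 on the log2 scale. The median change of the 7 probes was -0.04, against 0.03 for all tested probes. Groups did not overlap for 2 of the 7, Tkt and Pgm3, and for 43.4% of all tested probes.

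Transketolase moves 2-carbon units in the reversible branch of the pentose phosphate pathway. Tkt read 11.70, 11.77 and 11.66 in control replicates 1 to 3, and 11.05, 11.29 and 11.15 with DZNep. It read 11.72, 11.78 and 11.75 in high glucose, and 11.35, 11.25 and 11.02 with both agents. All 6 arrays with DZNep lay below all 6 arrays without it, and glucose made no visible step at either DZNep level. With DZNep Tkt fell by 0.55 (SE 0.094, 1.46-fold lower, n = 3 per group, limma adjusted p = 0.00168), and in high glucose by 0.54 (SE 0.094, adjusted p = 0.00247). With both agents it fell by 0.50 against control (adjusted p = 0.00311). Without control replicate 3 these falls against control were 0.57 with DZNep (adjusted p = 0.00445) and 0.53 with both agents (adjusted p = 0.00719). High glucose by itself gave 0.04 (95% interval -0.16 to 0.25, limma adjusted p = 0.85). The difference between the DZNep changes at the 2 glucose levels was 0.01 (95% interval -0.29 to 0.30, adjusted p = 0.988), so a difference of up to about 0.30 in either direction was not resolved.

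These Tkt values belong to 1 of its 4 probes. Fitted with no filter on dim probes, ILMN_2780322 gave -0.37 with DZNep (adjusted p = 0.0214) and -0.09 in high glucose (adjusted p = 0.717). ILMN_2780323 gave -0.30 (adjusted p = 0.0604) and -0.07 in the same comparisons. The fourth, ILMN_2570712, went the other way, 0.46 (adjusted p = 0.159) and 0.40 (adjusted p = 0.285). It is annotated to a transcript record that is not a RefSeq one, unlike the other Tkt probes. Averaged over both glucose levels it passed as higher with DZNep (0.43, adjusted p = 0.0484), opposite to the bright Tkt probe, and ILMN_2780322 passed as lower (-0.23, adjusted p = 0.0323). None of the 3 was detected on more than 1 array.

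Taldo1, transaldolase, the partner of Tkt in the reversible branch, was bright and flat. It read 12.72, 12.86 and 12.86 in control, 12.92, 12.71 and 12.83 with DZNep, 12.78, 12.78 and 12.63 in high glucose, and 12.77, 12.78 and 12.83 with both. The groups overlapped in every pair. With DZNep the change was 0.01 (95% interval -0.17 to 0.18, adjusted p = 0.947), and with high glucose -0.08 (95% interval -0.26 to 0.09, adjusted p = 0.604). At this probe a change of more than about 0.26 lay outside both intervals.

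Pgd, 6-phosphogluconate dehydrogenase, forms NADPH in the oxidative branch. Its 1 probe is annotated to a transcript record that is not a RefSeq one, so its values may not stand for the main transcript. This probe was detected on 7 of 12 arrays and read 5.07 to 5.79 over all arrays. Its groups overlapped in every pair, and the first replicate was the lowest of each group. The change was -0.04 with DZNep (95% interval -0.44 to 0.36, adjusted p = 0.891) and -0.16 with high glucose (95% interval -0.56 to 0.24, adjusted p = 0.682). With 1 array left out these were -0.19 to 0.09 and -0.29 to -0.01. So close to background, a change of this probe is understated.

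**Figure D2:**
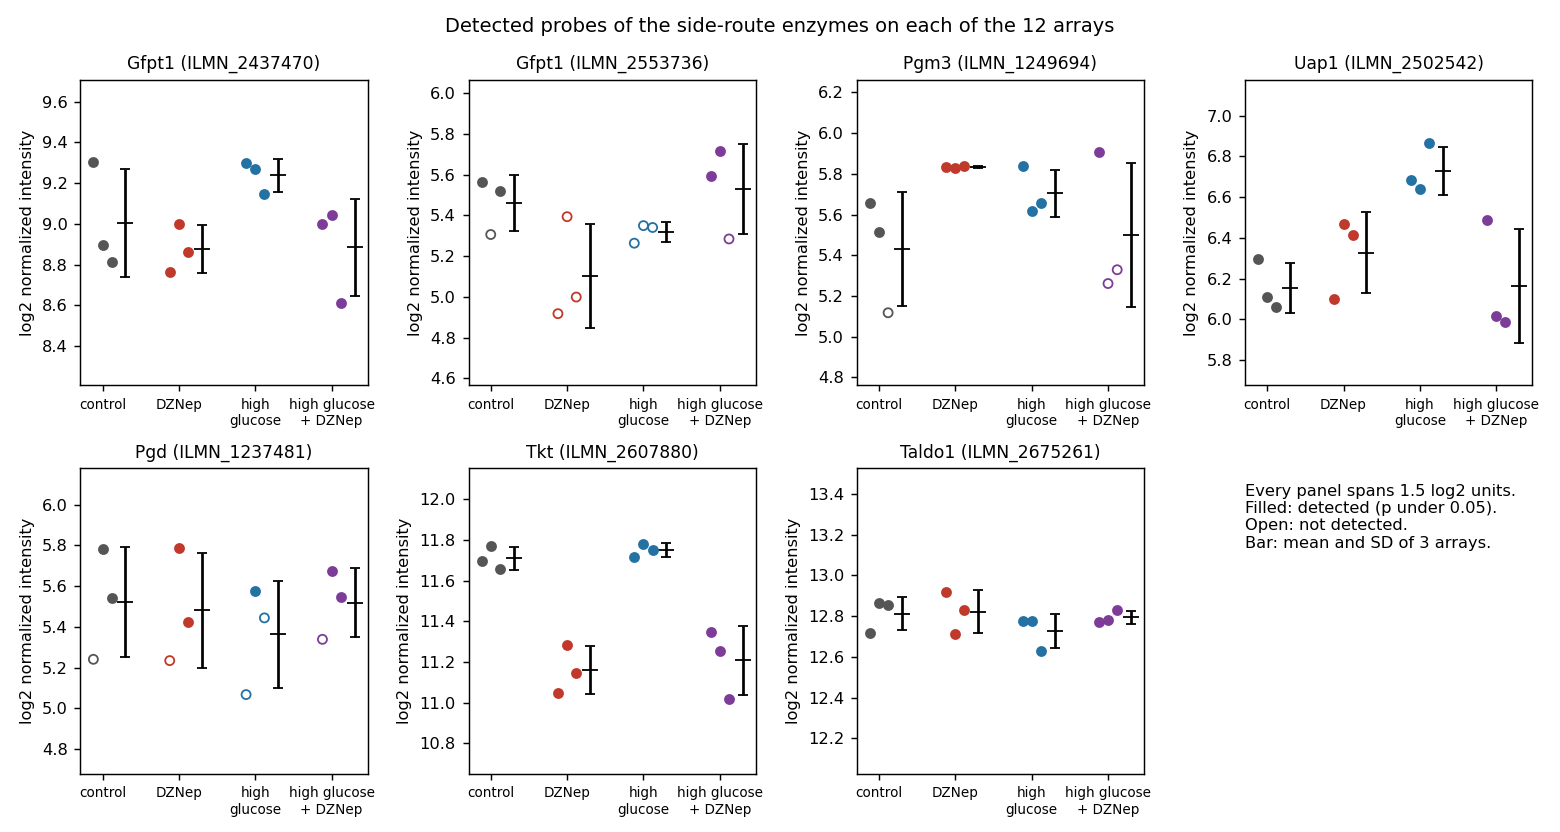
Log2 normalised intensity of the 7 tested member probes on each of the 12 arrays, by group, with the mean and SD of 3 arrays as bars. Each panel spans 1.5 log2 units, and open points were not detected. Tkt lay at 11.02 to 11.35 on the 6 arrays with DZNep and at 11.66 to 11.78 on the other 6.

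The second comparison asked how DZNep changed these enzymes in cells kept in high glucose. Of the 7 probes 2 were lower, Tkt and Uap1, and 0 were higher, where 19.0% of all tested probes passed (10.1% higher, 8.93% lower). The median of the 7 was -0.20, against 0.01 for all tested probes. Groups did not overlap for 3 of the 7, these 2 and Gfpt1 ILMN_2437470, and for 40.7% of all tested probes.

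Uap1, which makes UDP-N-acetylglucosamine, read 6.29, 6.11 and 6.06 in control and 6.10, 6.47 and 6.42 with DZNep. In high glucose it read 6.68, 6.64 and 6.87, and with both agents 6.49, 6.02 and 5.99. The 3 high glucose arrays were the highest of the 12, and each lay above all arrays with both agents, the nearest of which was replicate 1. DZNep in high glucose lowered Uap1 by 0.56 (SE 0.144, 1.48-fold lower, n = 3 per group, limma adjusted p = 0.0193). The call ended when 1 of 3 arrays was left out, with a change of -0.49 (adjusted p = 0.0771) without replicate 2 and -0.48 (adjusted p = 0.0783) without replicate 3 of the group with both agents, and -0.50 (adjusted p = 0.063) without high glucose replicate 3. Its raw signal was 169 to 222, not far above the array medians, and without background correction the change was -0.24 (adjusted p = 0.0182).

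For the other Uap1 comparisons no change passed. High glucose against control gave 0.58 (SE 0.144, 95% interval 0.26 to 0.89), with no overlap between the groups, an unadjusted p of 0.002 and a limma adjusted p of 0.109. Over 19 alternative settings this value lay between 0.25 and 0.65 and its adjusted p reached at most 0.286. DZNep against control gave 0.17 (95% interval -0.14 to 0.49, adjusted p = 0.394). With both agents Uap1 was 0.01 from control (95% interval -0.31 to 0.33, adjusted p = 0.964). The DZNep change in high glucose minus that at control glucose was -0.74 (SE 0.204, unadjusted p = 0.00389, adjusted p = 0.157), so a difference between the glucose levels was not called.

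Gfpt1, the amidotransferase that commits fructose 6-phosphate to the hexosamine pathway, had a bright probe and a dim one. The bright probe read 9.31, 8.89 and 8.81 in control, 8.77, 9.0 and 8.86 with DZNep, 9.30, 9.27 and 9.15 in high glucose, and 9.0, 9.04 and 8.61 with both. Control replicate 1 was the highest array, and the high glucose group lay above both DZNep groups. In high glucose DZNep gave -0.35 (SE 0.144, 95% interval -0.67 to -0.04), which did not pass (adjusted p = 0.109). The change was -0.13 with DZNep alone (adjusted p = 0.535) and 0.23 with high glucose alone (95% interval -0.08 to 0.55, adjusted p = 0.415). These values rest on single arrays. The DZNep change was 0.02 without control replicate 1 and -0.22 without control replicate 3, and the high glucose change 0.38 and 0.14. The change with DZNep in high glucose was -0.22 without replicate 3 of the group with both agents.

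The dim Gfpt1 probe (ILMN_2553736) is annotated to a transcript record that is not a RefSeq one. This probe was detected on 4 of 12 arrays, 2 in control and 2 with both agents. It read 5.56, 5.31 and 5.52 in control, 4.92, 5.39 and 5.0 with DZNep, 5.26, 5.35 and 5.34 in high glucose, and 5.59, 5.72 and 5.28 with both. On the DZNep arrays and the high glucose arrays it was not well above background, so only bounds on the ratios of group means are given. The control mean was at least 1.02-fold that with DZNep (limma adjusted p = 0.0699) or high glucose (adjusted p = 0.612), and neither change passed. A bound is the mean of the brighter group over the higher of the probe's own signal and the lowest detected signal on each dimmer array. With both agents the group mean was at least 1.07-fold that with DZNep alone (adjusted p = 0.369). For DZNep in high glucose it was likewise at least 1.07-fold higher (adjusted p = 0.32), opposite to the bright probe, and neither passed.

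Pgm3, the mutase between Gfpt1 and Uap1, had 1 tested probe of 4, detected on 9 arrays. It read 5.66, 5.51 and 5.12 in control and 5.83, 5.83 and 5.84 with DZNep. It read 5.84, 5.62 and 5.66 in high glucose, and 5.91, 5.26 and 5.33 with both. Every DZNep array was above every control array, of which replicate 3 was the lowest of the 12. DZNep against control gave 0.40 (95% interval 0.03 to 0.78), which did not pass (adjusted p = 0.0942), and 0.25 without control replicate 3 (adjusted p = 0.31). In high glucose DZNep gave -0.20 (95% interval -0.58 to 0.17, adjusted p = 0.447), and -0.41 to -0.09 with 1 array left out. The difference between these DZNep changes was -0.61 (SE 0.241, adjusted p = 0.268).

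High glucose against control was the third comparison, and 0 of the 7 probes passed, where 0.123% of all tested probes did (20 probes). In limma 1 of the 7 had an unadjusted p below 0.05, Uap1, as had 2933 of all 16311 tested probes. Uap1 was also the 1 whose groups did not overlap, as for 20.3% of all tested probes. Under DZNep, high glucose changed 0 of the 7 (0.0736% of all). Here 1 unadjusted p was below 0.05, the dim Gfpt1 probe, against 1560 of the 16311. Averaged over both DZNep levels it changed 0 of the 7 (0.135% of all), with 0 unadjusted p-values below 0.05 (1820 of the 16311). The interaction of the agents passed for 0 of the 7 (0.0368% of all). Its unadjusted p was below 0.05 for 3 of them, Uap1, Pgm3 and the dim Gfpt1 probe, and for 2543 of the 16311. With both agents against control 1 of the 7 was lower (26.0% of all passed, 11.8% lower), and for DZNep averaged over both glucose levels 1 was lower (37.6% of all passed, 17.5% lower), in each case Tkt. The averaged Tkt change was -0.55 (SE 0.066, limma adjusted p = 0.000104). These comparisons share arrays, so their counts are not independent.

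**Figure D3:**
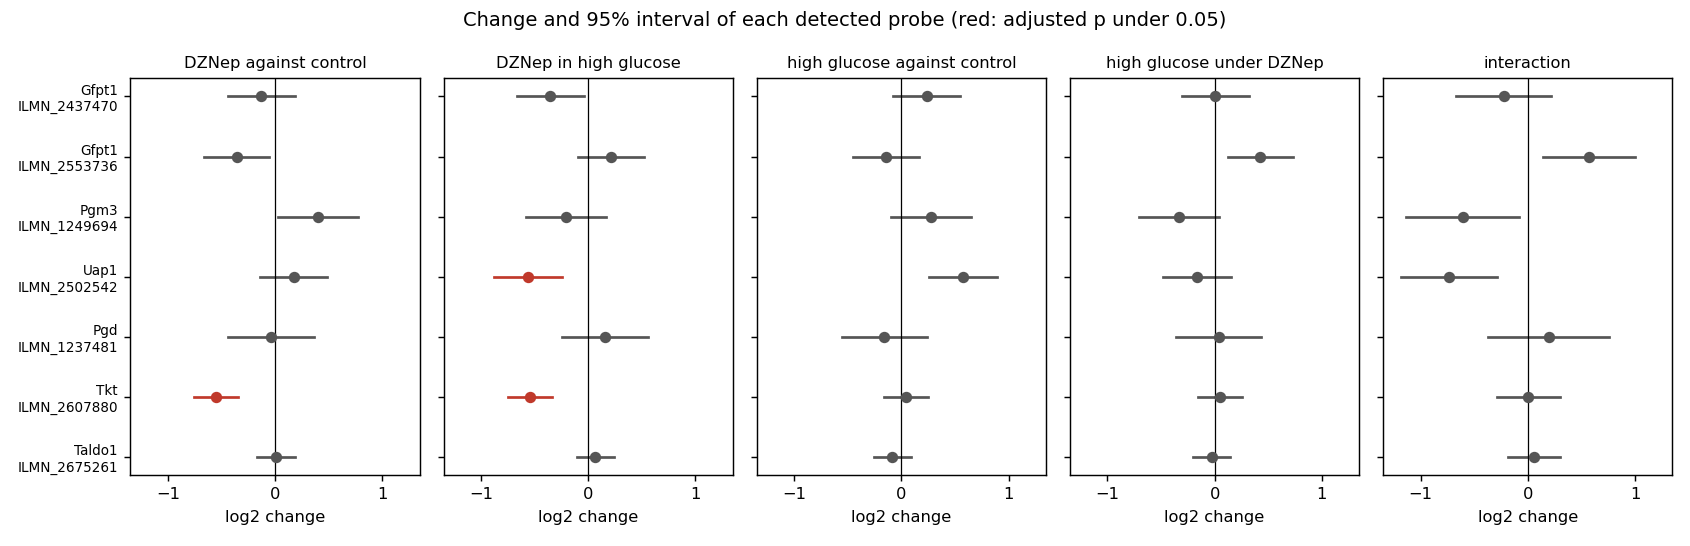
Log2 change and 95% interval (limma) of the 7 tested member probes in 5 comparisons, with red points where the adjusted p was below 0.05. Tkt was below 0 in both DZNep comparisons and Uap1 in DZNep in high glucose, and every interval for Taldo1 spanned 0.

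The neighbouring genes of each route were counted from lists of pathway members and related genes that leave out the 10 enzymes, with the brightest probe standing for a gene. Of all 10258 genes so tested, 31.7% passed for DZNep against control (19.0% higher, 12.7% lower) and 21.1% for DZNep in high glucose (10.6% higher, 10.4% lower). High glucose against control passed for 0.117%, and for 0 of the genes of the 3 routes. Each of the 3 route lists held genes that moved either way with DZNep at control glucose.

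Around the polyol pathway, 10 of 13 listed genes were tested, of which 2 rose and 1 fell with DZNep, and 2 rose and 1 fell with DZNep in high glucose. The list medians were -0.01 and -0.10, against 0.05 and 0.01 for all genes. Dcxr, a reductase that makes xylitol and also reduces dicarbonyls, rose by 0.90 (SE 0.098, 1.87-fold, limma adjusted p = 0.000111), from a mean log2 level of 11.6 to 12.5, and by 0.62 in high glucose (adjusted p = 0.00146). Both Dcxr probes rose in both comparisons. Tkfc, which phosphorylates the triose glyceraldehyde formed from fructose, rose by 0.87 (SE 0.154, adjusted p = 0.002) and by 0.68 in high glucose (adjusted p = 0.0109). Khk, ketohexokinase, the first enzyme of fructose use, fell by 0.32 (adjusted p = 0.0316) and by 0.43 (adjusted p = 0.0129). Both Khk probes fell in both comparisons. The Khk call with DZNep ended without control replicate 1 or 2 or DZNep replicate 2 or 3 (adjusted p at most 0.111), and the call in high glucose without replicate 2 of the group with both agents (adjusted p = 0.0546). The aldo-keto reductases Akr1a1, Akr1b8 and Akr1b10, relatives of aldose reductase, did not pass, with changes of -0.11, 0.02 and 0.15 with DZNep.

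Among genes of the hexosamine pathway and UDP-N-acetylglucosamine use, 18 of 28 were tested, and 3 rose and 3 fell with DZNep, with a median of 0.06. Uap1l1, a homologue of Uap1, rose by 0.44 (SE 0.080, limma adjusted p = 0.00233), and 0.18 in high glucose did not pass. Mgat1, which starts complex N-glycans, rose by 0.68 (adjusted p = 0.008), but its other probe gave -0.25, which did not pass. Slc35a3, the Golgi carrier of UDP-N-acetylglucosamine, fell by 0.71 (SE 0.146, adjusted p = 0.0045), to a dim mean level of 6.13, and all 4 of its probes fell. Gnpda2, which converts glucosamine 6-phosphate back to fructose 6-phosphate and so opposes the amidotransferases, fell by 0.44 (adjusted p = 0.003) and by 0.70 in high glucose (SE 0.084, adjusted p = 0.00029). Nagk, the N-acetylglucosamine kinase of the salvage route, fell by 0.38 (adjusted p = 0.00247), and of its 3 other probes 1 also fell (-0.33) and the rest gave 0.08 and 0.0026. For DZNep in high glucose only the first-named probe fell (-0.31). In this comparison 1 gene of this list rose (Mgat5, an N-glycan branching enzyme, 0.43) and 3 fell, with a median of -0.07. The Mgat5 call ended without high glucose replicate 1 (0.33, adjusted p = 0.1) or without replicate 2 or 3 of the group with both agents. The largest of these falls was in Cmas, which activates sialic acid, -0.78 (SE 0.142, adjusted p = 0.0035). The O-GlcNAc transferase Ogt and hydrolase Oga did not pass in either comparison, with -0.22 and 0.25 for DZNep against control. With arrays centred on their medians, the counts in high glucose were 0 higher and 2 lower.

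The list for the pentose phosphate pathway also holds neighbours of it, such as Pgm1 and Ppat. Of its 15 genes 10 were tested, and 2 rose and 1 fell with DZNep, with a median of -0.01. Rpia, ribose 5-phosphate isomerase, which feeds Tkt its substrate, rose by 0.61 (SE 0.084, 1.53-fold, limma adjusted p = 0.000493) and by 0.46 in high glucose (adjusted p = 0.00343). H6pd, the hexose 6-phosphate dehydrogenase of the endoplasmic reticulum, rose by 0.43 (adjusted p = 0.00396), and gave 0.25 in high glucose, which did not pass. Pgm1, a phosphoglucomutase, fell by 0.25 (adjusted p = 0.0191) and by 0.45 in high glucose (adjusted p = 0.00112). The former Pgm1 call ended without control replicate 2 (adjusted p = 0.0567) or DZNep replicate 2 (adjusted p = 0.0701). For DZNep in high glucose 1 gene rose and 4 fell, with a median of -0.34 against 0.01 for all genes. Beside Pgm1 these were the deoxyribose-phosphate aldolase Dera (-0.60), the purine synthesis enzyme Ppat (-0.38) and the lactonase Pgls (-0.35, at 1 of 3 tested probes, with 0.30 and -0.18 at the others). That count rests on single arrays: it was 1 and 1 without high glucose replicate 1 or 2 or without replicate 2 of the group with both agents, and 1 and 2 without replicate 1 or 3 of the latter group or with arrays centred on their medians.

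**Figure D4:**
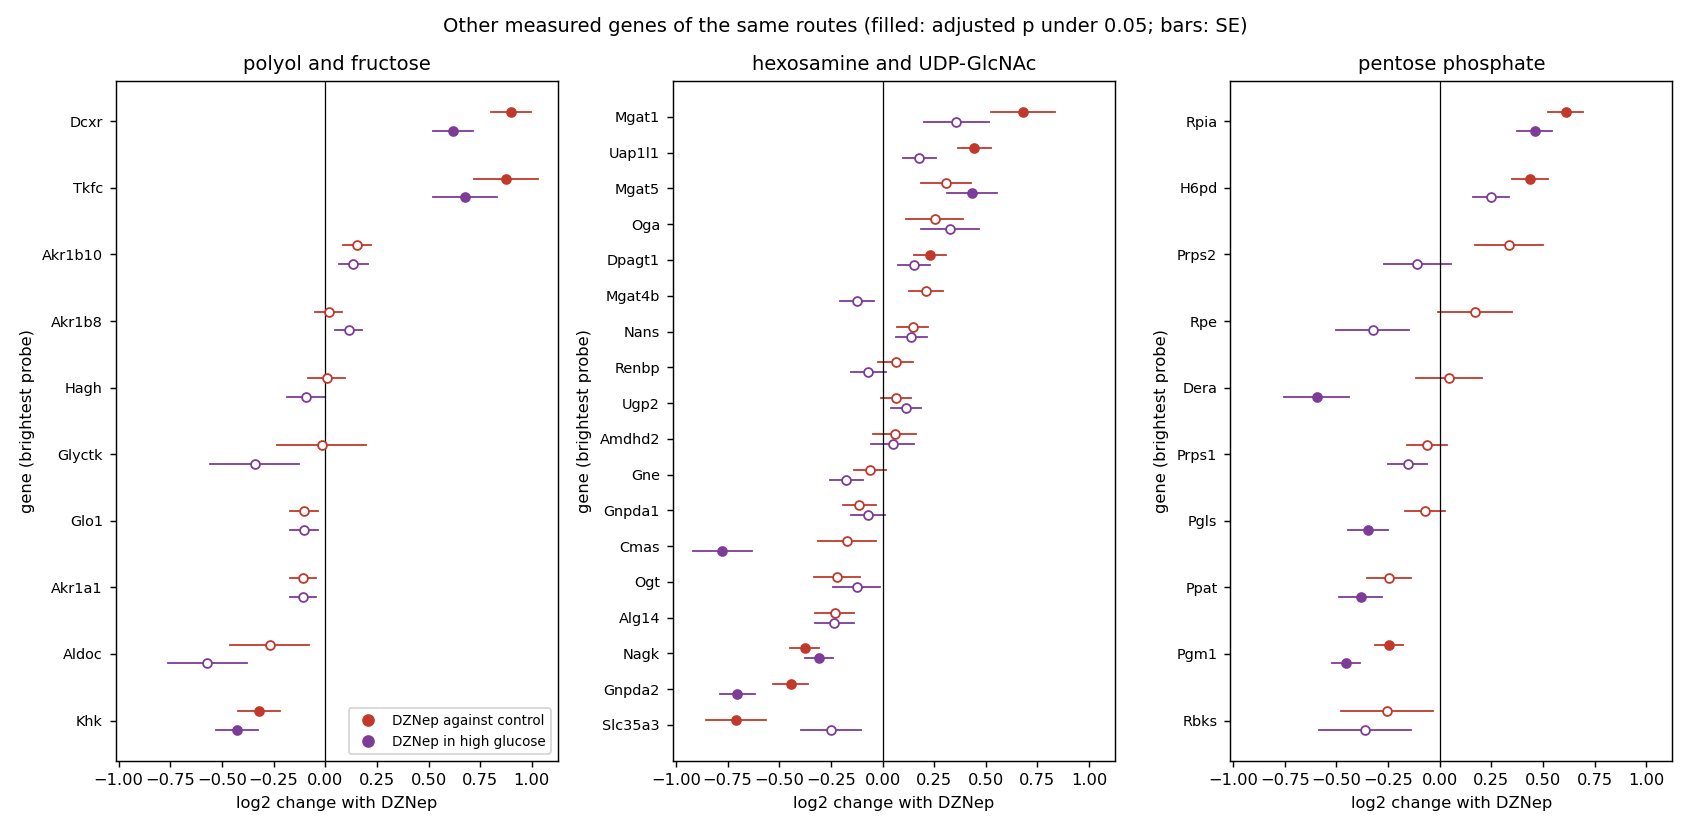
Log2 change with DZNep (red, against control; purple, in high glucose) of the other tested genes of the 3 routes, with SE bars and filled points where the adjusted p was below 0.05. Dcxr and Tkfc were higher and Khk lower in both comparisons, and Rpia was higher and Gnpda2 lower in both.

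Where the routes leave glycolysis, 9 of 19 listed genes of glucose entry and upper glycolysis were tested. With DZNep 1 rose, Slc2a8, and 2 fell, Aldoa and Pfkm (median -0.13), and 2 rose and 3 fell without control replicate 1. Aldoa, the muscle-type aldolase that splits fructose 1,6-bisphosphate, fell by 0.55 (SE 0.079, limma adjusted p = 0.000669) and by 0.51 in high glucose (adjusted p = 0.00127). For DZNep in high glucose 0 rose and 4 fell (median -0.16). Besides Aldoa, these were the hexokinase Hk1 (-0.35, with 0.05 at its other probe, a probe that fell by 0.93 with DZNep where this one gave 0.21), the GLUT1 transporter Slc2a1 (-0.29) and the muscle phosphofructokinase Pfkm (-0.26). The count fell to 1 without replicate 3 of the group with both agents, without high glucose replicate 1 or 2, or with arrays centred on their medians, and to 2 without any of the 3 other arrays of these groups or in the authors' values. Aldoa passed in each of these.

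NADPH is also formed outside the pentose phosphate pathway, and 11 of 13 listed enzymes for this were tested. With DZNep 2 rose, Aldh1l1 and Mthfd2, and 2 fell, Aldh1l2 and Idh1 (median -0.0012). Without DZNep replicate 1 the counts were 1 and 1. Aldh1l1, a formyltetrahydrofolate dehydrogenase, rose by 0.88 (SE 0.166, limma adjusted p = 0.0029), and the cytosolic isocitrate dehydrogenase Idh1 fell by 0.43 (adjusted p = 0.02). The Idh1 call ended without control replicate 3 (-0.29, adjusted p = 0.063) or DZNep replicate 1 (-0.36, adjusted p = 0.077). For DZNep in high glucose 2 rose, Aldh1l1 and Mthfd1, and 3 fell (median 0.07). The falls were in Aldh1l2, the mitochondrial isocitrate dehydrogenase Idh2 (-0.51) and malic enzyme Me1 (-0.45). The Idh2 call (adjusted p = 0.0495) ended without any single array of these groups (adjusted p at most 0.156). With the replicate number as a block 1 rose and 1 fell, and without any single array of the 2 groups in this comparison the total was 1 or 2.

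Of 14 listed genes of NRF2, the factor that induces antioxidant genes, 13 were tested. The list holds targets of NRF2, and also its own gene Nfe2l2 and its inhibitor Keap1. With DZNep 1 rose, Gclc, and 4 fell, Srxn1, Nqo1, Gclm and Prdx1 (median 0.01). Sulfiredoxin, Srxn1, fell by 0.80 (SE 0.073, limma adjusted p = 4.06e-05) and by 0.88 in high glucose (adjusted p = 2.59e-05). The counts were 0 and 2 without control replicate 3, 1 and 1 without DZNep replicate 2, 1 and 2 without DZNep replicate 3, and 1 and 2 with no filter on dim probes. All 3 Srxn1 probes fell in both comparisons. For DZNep in high glucose 0 rose and 2 fell, Srxn1 and Me1, and 1 rose and 3 fell in the authors' values.

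Of the osmotic response genes, which are regulated by NFAT5 together with aldose reductase, 7 of 11 were tested. High glucose raised 1 of these, Aqp1, a water channel that is also a tubular marker, by 1.16 (SE 0.107, 2.23-fold, limma adjusted p = 0.00138), and by 1.05 under DZNep (adjusted p = 0.00315), where 0.0585% of all genes passed. With DZNep 1 rose and 2 fell: Sgk1, a kinase induced by cell shrinkage, by 0.74 (adjusted p = 0.000149), Nfat5 itself (-0.53) and the amino acid carrier Slc38a2 (-0.49, with 0.41 and -0.13 at its other probes). DZNep in high glucose raised Sgk1 by 0.70 and lowered S100a4 (-0.85) and Slc38a2 (-0.39). The S100a4 call ended without high glucose replicate 1 (-0.67, adjusted p = 0.0663) or without replicate 2 or 3 of the group with both agents.

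Of 7 tested glucose-sensing factors and their targets, 2 rose with DZNep and 0 fell, among them Txnip, a thioredoxin-binding protein induced by glucose (0.31, limma adjusted p = 0.00504). Txnip gave 0.38 with high glucose, which did not pass (adjusted p = 0.0549). The count with DZNep was 1 and 0 without control replicate 3 or DZNep replicate 1, and 0 and 1 with arrays centred on their medians. Of these genes 1 fell with DZNep in high glucose, the acetyl-CoA carboxylase Acacb. With both agents it was not well above background, and it was at least 1.12-fold lower than in high glucose alone (adjusted p = 0.0198). That count was 0 without replicate 2 or 3 of either group, without background correction, or with detection p below 0.01 on all arrays.

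Markers of other cell types moved with DZNep on the same arrays. Of 6 tested mesangial and smooth muscle markers 2 rose (Gata3 by 1.13, Pdgfrb by 0.69), and of 4 tested endothelial markers 2 rose (Esam by 0.98, Eng by 0.80). The same 4 genes rose with DZNep in high glucose. Of 2 tested leukocyte markers 1 rose with DZNep (Laptm5, at least 1.72-fold), and 0 of 4 parietal markers passed. The 6 tested tubular markers included 1 that was higher with DZNep, Cdh1, and 1 that was lower, Cdh16. Among 7 podocyte markers Nphs1 rose by 0.22, while Cd2ap (-0.39) and Vim (-0.54) fell. Summed over the tested markers on the log2 scale, the mesangial list was 52.8 to 54.7 in control and 55.2 to 55.8 with DZNep, and 53.7 to 54.5 in high glucose and 54.6 to 56.3 with both. The endothelial sum was 21.9 to 23.6 in control and 24.1 to 24.7 with DZNep, and 22.5 to 23.4 and 23.6 to 24.5 in the corresponding high glucose groups. The tubular sum was 56.8 to 57.2 in control and 57.2 to 57.5 with DZNep, against 58.1 to 58.8 in high glucose and 58.2 to 58.9 with both. Of these 6 markers 1 passed for high glucose against control, Aqp1, with a mean of 10.6 in control and 11.8 in high glucose. The other 5 did not pass, with Cdh16 going from 13.5 to 13.8 and Lrp2 from 11.4 to 11.2. The part of these cell types in the Tkt and Uap1 values was not tested. In bulk RNA, fewer cells of a type and less RNA per cell cannot be told apart.

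The genes whose pattern over the 12 arrays was most like that of the Tkt probe were Rbm33 (Pearson r 0.98), Plscr4 (0.97), Arpc1a (0.97), Usp3 (0.97) and Maml2 (0.96). Chosen for likeness to a probe that separates the DZNep arrays, each was lower on those arrays by that choice, so these falls are no separate finding. The log2 changes ran from -0.54 (Rbm33) to -0.34 (Arpc1a) at control glucose and from -0.62 (Plscr4) to -0.34 (Usp3) in high glucose. All 12 points of each correlation come from the same arrays, and 6 of them carry DZNep.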

How the data were processed

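Total RNA was amplified to biotin-labelled cRNA for Illumina arrays, per the labels' protocols. Probe signals were deposited as raw intensity values with a detection p-value per probe and array, per the file headers. The authors' processed intensity values were a linear function of the raw signal (factor 0.832 to 1.12), scaled to 1 mean per array. GenomeStudio is named, per the submitters' processing notes.

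Here neqc of limma 3.58.1 in R 4.3.3 took background from the detection p-values (offset 16) and quantile normalised the signals, so folds of dim probes are understated. A model of the 4 group means was fitted to 16311 probes with lmFit and eBayes, with Benjamini-Hochberg adjustment within each of 8 comparisons. A run on simulated data used independent noise and far fewer changed probes than were called with DZNep here, so it does not check these calls. The number of arrays limits the precision. Of 45281 probes 34885 had 1 symbol, 18 several and 10378 none, and 34807 matched the RefSeq table.

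All 10 enzymes were named, with up to 4 passing genes by smallest p per list, other genes named for their role, and the 5 genes most like the member with the smallest p for DZNep against control. The members and lists were chosen with earlier results of these data known, and the motifs after the data were seen. Alternatives covered normalisation, background, the authors' values, filters, probe summary, replicate block and each array left out. The probes of Akr1b3, Sord and G6pdx, and protein sequences, were not analysed here.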

Additional observations from a re-analysis of the deposited data

How the results depend on the processing

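For DZNep against control, 1 member probe passed, and 2 with no filter on dim probes, both Tkt and lower. For DZNep in high glucose, 2 passed, and 1 with detection p below 0.01 on all arrays, where Uap1 was not among the 3 probes tested. For DZNep averaged over both glucose levels, 1 passed (Tkt, lower), 2 without background correction (also the bright Gfpt1 probe, lower, adjusted p = 0.0386) and 3 with no filter, of which 2 Tkt probes were lower and the third, ILMN_2570712, higher. Leaving out 1 array gave 1 to 2 in each of these comparisons. The probes gained were the dim Gfpt1 probe (without DZNep replicate 2, adjusted p = 0.0183) and Pgm3 (without replicate 1 of the group with both agents, adjusted p = 0.0353), for DZNep against control, and Uap1 (without the latter array, lower, adjusted p = 0.0285) for the average. Counts in the other 5 comparisons did not move by over 1.5 times. Tkt passed in all 20 alternatives for DZNep against control (-0.61 to -0.49, adjusted p at most 0.00873) and in high glucose (-0.61 to -0.45, adjusted p at most 0.0204). Of 1080 member values under alternatives, 1073 kept their side of the threshold, 4 passed in addition, 3 no longer passed and 0 called values changed sign.

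Over all probes, DZNep against control gave 3391 to 5574 calls (5080 as reported, 54.8% higher, 35.3% with arrays centred on their medians), DZNep in high glucose 1906 to 3727 (3100, 53% higher, 63.7% in the authors' values), high glucose against control 10 to 283 (20), high glucose under DZNep 5 to 23 (12), both agents against control 2773 to 4850 (4239), the interaction 0 to 145 (6) and high glucose averaged 10 to 56 (22). The cause of these shifts was not tested.

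Same-numbered samples of different groups correlated at -0.262 to 0.209 in their deviations, with 2 of 18 over 0.1. With so few arrays per group, these correlations cannot decide whether same-numbered samples shared a culture or batch. With the replicate block all 56 member results stayed on their side of the threshold, with counts of 1 and 2 for DZNep against control and in high glucose. Slide as a block was not run, since the headers give no slide. Dim probes (Uap1, Pgm3, Pgd, the second Gfpt1 probe) limit what can be read.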
